A study of Mus musculus with 40 samples.

Results

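The genes described here encode RNA polymerase II, RNA polymerase III and the factors that load them onto promoters, followed in mouse oocytes of 5 follicle stages. They were chosen by symbol: every probe set of the 430A and 430B arrays whose single annotated gene symbol begins with Polr2, Polr3, Med and a digit, Taf and a digit, Gtf2 with a, b, e, f or h, or Gtf3c, leaving out Taf4b and Gtf2a1l. The rule took 176 probe sets of 90 genes, out of 45037 probe sets and 18194 genes with a single symbol. Of the 90 genes, 89 had a probe set that passed the filter on low signals. Med9os, a transcript from the opposite strand of Med9, did not. The name "RNA polymerase II and III transcription machinery" fits most members but not all. Taf1a, Taf1b, Taf1c and Taf1d are subunits of SL1, the promoter factor of RNA polymerase I. Taf5l and Taf6l belong to histone acetyltransferase complexes, and Taf15 is an RNA-binding protein that was first found with TFIID.

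RNA polymerase II makes messenger RNAs, and RNA polymerase III makes transfer RNAs, the smallest ribosomal RNA and other short RNAs. At a polymerase II promoter, TFIID, built from TBP and the TAF proteins, recognises the start site, and TFIIA, TFIIB, TFIIE, TFIIF and TFIIH complete the complex, while Mediator links it to activators bound elsewhere. TFIIIC is the factor that recognises the promoters of transfer RNA genes for polymerase III. Growing oocytes transcribe heavily to stockpile RNA, and fully grown oocytes fall silent before they resume meiosis, so the supply of this machinery over growth is of interest.

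Oocytes were collected from SJLB6 female mice at 2 days (primordial follicles), 6 days (primary), 12 days (secondary), 17 days (small antral) and 24 days (large antral), with pools of 400, 90, 60, 30 and 20 oocytes a sample in that order of stages. There were 4 samples a stage on each array type, 40 in all, which the submitters call biological replicates. The animals behind them are not given in the sources used here, so p-values measure the spread between these samples, which may be technical. Age and pool size change with stage, so neither can be told apart from it. Values are array signals made with MAS5, scaled here so that the trimmed mean of each array is 500. Each signal is an abundance relative to the RNA hybridised, so a lower signal cannot be told apart from a larger amount of other RNA in the cell. Signals of different probe sets are not compared with each other. Each gene is represented by 1 probe set, on 430A for 74 genes and on 430B for 15.

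A change is the difference in log2(signal + 32) between a stage and the one before it, later minus earlier, from limma over all 20 arrays of a type. A gene is called higher or lower where the Benjamini-Hochberg adjusted p is under 0.05. The primordial samples need care. The values of primordial replicates 2, 3 and 4 have the form of means with replicate 1: doubling replicate 2, 3 or 4 and subtracting replicate 1 left no signal below 0 beyond rounding among 22526 of the 22626 probe sets of 430A or the 22411 of 430B (0 in each). The other 100 probe sets of 430A hold values off the file's decimal steps at later stages too, and were left out of this check. The same subtraction at the other stages gave between 1085 and 3773 negative signals a pair of samples. Such samples are not independent, so p-values between primordial and primary oocytes are too small as deposited. Changes out of the primordial stage are therefore also given from doubled values minus replicate 1, called unmixed values. There is no such change for Polr2f, whose representative probe set is 1 of those 100, or for Taf7l. They were scaled on their own and correlate less well between replicates (0.786 to 0.939 over both array types, against 0.938 to 0.985 as deposited). For 3 small antral samples of 430B the extraction text names the age and pool of the secondary stage instead, and the titles were followed.

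All 14 oocyte markers examined, among them Gdf9, Zp3 and Ddx4, had a mean signal of at least 100 at every stage. Of 15 granulosa cell markers measured, 6 to 8 reached that level, Foxl2, Fshr, Inha, Kitl and Nr5a2 at every stage. Their summed signal ran from 2853 to 3003 in primordial samples, from 3452 to 4469 in primary, from 3349 to 4159 in secondary, from 3854 to 4513 in small antral and from 4156 to 5074 in large antral samples. Theca and stroma markers reached 100 for 3 to 5 of 10 genes, surface epithelium markers for 3 or 4 of 8, and blood, immune and endothelial markers for 2 or 3 of 8. The log2 ratio of the 3′ to the 5′ control probe sets is a measure of RNA length. Its lowest value as deposited was in a primordial sample for both controls. From secondary to large antral samples it did not run the same way for both. For Actb it lay between 2.57 and 4.16 in large antral samples, against 2.28 to 2.47 in secondary samples. In primordial samples Actb had 1.77 to 2.44 as deposited, but 3.03 to 6.24 in replicates 2 to 4 after unmixing. For Gapdh it lay between 2.26 and 2.49 in large antral samples, against 2.97 to 3.16 in secondary samples. In primordial samples Gapdh had 1.74 to 2.77 as deposited, and 1.61 and 1.65 in replicates 2 and 4 after unmixing. It was not computed for primary samples. The part of these in the results below was not tested.

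Mean signals reached 100 at all 5 stages for 83 of the 89 genes. All 89 had already passed the filter on low signals, which asks for 100 or more on at least 4 arrays. The filter therefore sets part of this count, and the same count over all genes tested is not given here. A signal of 100 is not a detection call, so presence of the transcripts was not tested. Among the 4 growing stages, primary to large antral, the highest stage mean of a gene exceeded its lowest by a median of 1.47-fold. That fold was at least 2 for 12 genes and under 1.5 for 50. The transition out of the primordial stage had the most calls, 59 of 89 genes, against 23, 17 and 12 at the 3 later transitions. All 15426 genes tested had the same contrast, with 25.3% rising and 23.5% falling at the first transition. At the later transitions 9.16% rose and 6.75% fell, then 5.43% and 8.94%, then 2.99% and 4.37%. The heat map shows this contrast for the 89 genes.

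**Figure D1:**
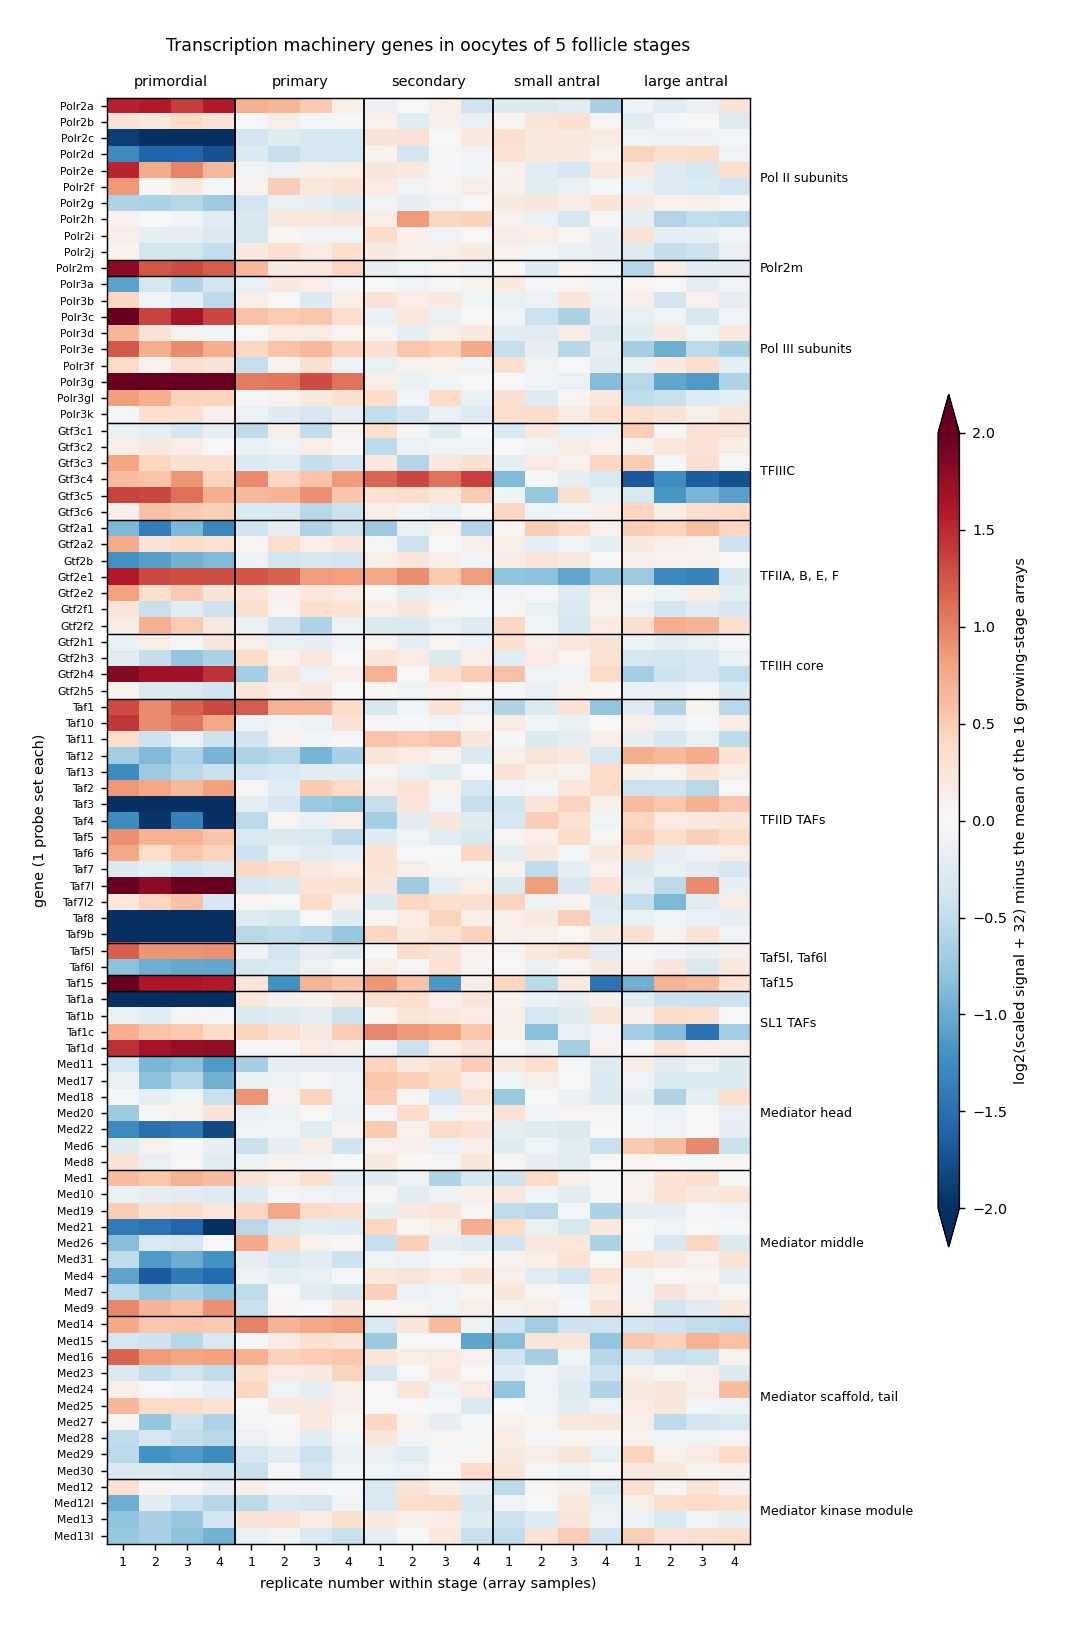
Heat map of the 89 genes (1 row each, grouped by role) in the 20 samples that measured each, with stages in order from primordial to large antral. Colour is log2(scaled signal + 32) minus the gene's mean over the 16 growing-stage arrays, from blue (lower) to red (higher), clipped at -2 and 2. Taf1a, Taf3, Taf8, Taf9b and Polr2c are blue in all 4 primordial samples, while Polr3g, Taf7l and Gtf2h4 are red there.

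Between primordial and primary oocytes, 33 of the 89 genes rose and 26 fell, against 25.3% and 23.5% of all 15426 genes tested. The median change was 0.05 over the members and -0.05 over all genes. With unmixed primordial values 33 rose and 14 fell, against 23.2% and 18% of all genes. Of these, 30 rises and 14 falls were the same genes as deposited, and no gene was called in opposite directions. Scaling each array on its median, which moves the median change of all genes to 0.14, gave 34 rises and 16 falls among the members. Of all 15410 genes tested under that scaling, 4809 rose and 2542 fell. Changes of at least 2-fold were called for 21 genes as deposited. The same count over all genes tested, or with unmixed values, is not given here, so it is not a trait of the members.

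The 4 largest rises were in TAF genes, 3 of TFIID and 1 of SL1. Taf3, a TAF that reads a methylated histone mark at active promoters, had signals of 4611, 4105, 3115 and 2978 in primary oocytes, against 437, 662, 753 and 550.2 in primordial oocytes. Every primary sample lay above every primordial sample, also after unmixing (437, 896, 1078 and 676). The change was 2.56 ± 0.18 on the log2 scale (SE, limma adjusted p = 6e-11), and 2.26 ± 0.22 with unmixed values. Taf9b, a paralogue of the histone-fold subunit Taf9, had 3479, 3593, 3420 and 2999.9 in primary oocytes, against 779.5, 409.1, 625.9 and 507.5 in primordial oocytes. The second Taf9b probe set, which may cross-hybridise, changed by -1.0 ± 0.44 and was not called. On the first the groups did not overlap, although unmixed primordial values spread from 49.1 to 779.5, and it rose by 2.51 ± 0.14 (unmixed 3.44 ± 0.38). Taf8, which pairs with Taf10, had 599.6, 574.8, 729.3 and 604.9 in primary oocytes, against 114.7, 94.5, 114.3 and 89.2 in primordial oocytes. It too was separate in all samples and rose by 2.29 ± 0.13 (unmixed 2.41 ± 0.16). This probe set, 1416451_s_at, is of a kind that may detect more than 1 transcript, and the other Taf8 probe set changed by 0.27 ± 0.23 and was not called (adjusted p = 0.346). With unmixed values that second probe set was called (0.80 ± 0.32, adjusted p = 0.0433), with overlapping samples. Taf4, a scaffold TAF, rose by 1.53 ± 0.20 (unmixed 2.27 ± 0.38), with 504.4 to 817.9 in primary samples and 156.8 to 291.9 in primordial samples.

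Other TFIID subunits were lower in primary oocytes. Taf7l, a germ cell paralogue of Taf7, had 22.5, 23.5, 49.9 and 49.9 in primary oocytes, against 408.6, 205.8, 285.4 and 239.5 in primordial oocytes. All growing samples lay under 100, and unmixed primordial values were 418.1, 10.1, 171.5 and 82.5, which overlap the primary samples. It fell by 2.20 on the log2 scale (SE 0.32) as deposited, and it did not pass the signal filter with unmixed values. As deposited, only its primordial samples reached 100, so Taf7l passed the filter through the stage where it is high. The direction of this change was therefore fixed by the filter, although it is counted among the falls. Taf5, a subunit present in several copies in TFIID, fell by 1.08 ± 0.10 (unmixed -0.87 ± 0.13), with 4629 to 5464 in primary samples and 10008 to 12674 in primordial samples. Taf6 fell by 0.78 and Taf2 by 0.60, and both were called with unmixed values, while Taf2 was not called under median scaling (-0.29). Taf10 fell by 1.05 as deposited, but its unmixed change was -0.52 ± 0.22 and not called (adjusted p = 0.056). Of the 15 TFIID TAFs and paralogues, 6 rose and 5 fell as deposited, Taf7l among the falls, against 25.3% and 23.5% of all genes. With unmixed values 6 rose and 3 fell, against 23.2% and 18%.

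The SL1 subunits moved apart. Taf1a had 6316, 5805, 5744 and 6188 in primary oocytes, against 1236, 1147, 1110.3 and 870.4 in primordial oocytes. That is a rise of 2.44 ± 0.10 with no overlap (unmixed 2.65 ± 0.17, adjusted p = 4.4e-11). Taf1d had 196.7, 197.3, 226.5 and 213.3 in primary oocytes, against 603.0, 690.8, 736.7 and 752.9 in primordial oocytes. It fell by 1.59 ± 0.16, again with no overlap (unmixed -1.79 ± 0.18), on a probe set that may cross-hybridise. Of its other probe sets, 1457292_at fell by 1.80 ± 0.20 (unmixed -1.53 ± 0.24) and 1436558_at did not pass the test (-0.03 ± 0.29). Taf1c was not called (-0.19). Taf5l fell by 1.20 ± 0.13 (unmixed -0.95) and Taf6l rose by 0.77 ± 0.13 (unmixed 0.90), both with no overlap. Taf15 fell by 1.63 ± 0.50 as deposited, which was lost with unmixed values (adjusted p = 0.088) and without primary replicate 2 (adjusted p = 0.0766), whose signal was 19 against 109.4 to 156.6 in the other primary samples.

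Within RNA polymerase II itself, 4 of 10 subunits rose and 3 fell, against 25.3% and 23.5% of all genes. Polr2c, which starts assembly of the enzyme together with Polr2j, had 4448, 4908, 4597 and 4526 in primary oocytes, against 1546, 1335, 1251 and 1293 in primordial oocytes. It rose by 1.75 ± 0.09 without overlap (unmixed 1.94 ± 0.12). Polr2g, a subunit of the stalk, rose by 0.40 ± 0.08 (unmixed 0.37 ± 0.09). Polr2a, the largest subunit, which carries the catalytic site and the repeated tail, had 713.0, 691.2, 624.5 and 463.4 in primary oocytes, against 1283, 1327, 1153 and 1336 in primordial oocytes. It fell by 1.01 ± 0.14 with no overlap, and by 1.03 ± 0.17 unmixed. Polr2b, the second catalytic subunit, fell by 0.28 ± 0.09 (unmixed -0.33), a call lost under median scaling and under quantile normalization. Polr2e, shared by all nuclear RNA polymerases, had 1173, 1122, 1311 and 1323 in primary oocytes, against 3577, 2050.3, 2419 and 1925 in primordial oocytes. It was called lower as deposited (-0.96), but unmixed primordial values of 3660, 606.1, 1339 and 363.6 lay on both sides of the primary samples, with a change of 0.27 ± 0.40. In that reading primordial replicate 1 lay far above every primary sample. A second Polr2e probe set, 1451093_at, had 285.6, 238.0, 257.9 and 237.5 in primary oocytes, against 406.3, 426.9, 386.2 and 479.7 in primordial oocytes, and fell by 0.67 ± 0.15. Its groups stayed apart after unmixing (382.3 to 586.3 in primordial samples), with a change of -0.75 ± 0.17 (adjusted p = 0.000948). The third, 1458326_at, was low in primary samples (9 to 25.2) and did not pass the signal filter unmixed. Polr2m, known as Gdown1, a protein that holds polymerase II back from TFIIF, fell by 1.03 as deposited and by 0.43 unmixed, where it was not called.

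Of 9 RNA polymerase III subunits, 1 rose and 5 fell into the primary stage, and of 6 TFIIIC subunits 0 rose and 2 fell, beside the 25.3% and 23.5% of all genes. With unmixed values 2 polymerase III subunits fell, Polr3g and Polr3k, and 1 rose, against 18% and 23.2% of all genes. The rise was in Polr3b (1.25 ± 0.45, adjusted p = 0.0499), which was not called as deposited. Its probe set, 1443466_s_at, may detect more than 1 transcript, and the samples overlapped. Of the other Polr3b probe sets, 1443494_at fell by 1.03 ± 0.34 as deposited. Unmixed it was not called (-0.87 ± 0.38), although its samples did not overlap. The third, 1452949_at, was not called in either reading. Polr3g is 1 of a pair of alternative subunits, with Polr3gl, that give the enzyme its 2 forms, and it is known from embryonic stem cells. It had 283.9, 290.5, 351.1 and 296.7 in primary oocytes, against 1363, 1114, 1252 and 1089 in primordial oocytes. The groups were separate, also after unmixing (880.0 to 1395), and it fell by 1.87 ± 0.18 (adjusted p = 3.1e-09, unmixed -1.70 ± 0.20). Polr3gl had 79.3, 86.9, 97.9 and 109.1 in primary oocytes, against 170.6, 156.4, 125.2 and 122.7 in primordial oocytes, with an unmixed change of -0.24 ± 0.23 that was not called. Polr3k, which acts in termination, fell by 0.39 ± 0.10 (unmixed -0.58 ± 0.13), a call lost under median scaling. Polr3c was called lower as deposited (-1.15), but its unmixed primordial values were 1793, 159.0, 611.0 and 156.8, against 446.5 to 539.5 in primary samples. Polr3a, which holds the catalytic site, rose by 0.63 as deposited on its representative probe set and was not called unmixed there (0.28 ± 0.18). Another Polr3a probe set of 430A, 1434453_at, rose by 1.96 ± 0.12 (unmixed 2.055 ± 0.14, with no overlap). The 430B probe set 1444310_at was not called in either reading. In TFIIIC, Gtf3c6 fell by 0.82 ± 0.13 in both readings (unmixed -1.10 ± 0.17), with 307.5 to 374.5 in primary samples and 501.2 to 717.0 in primordial samples. Gtf3c1 did not pass the test (0.01).

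Among the general factors, Gtf2h4, a core subunit of TFIIH, showed the largest fall. It had 432.0, 847.2, 653.6 and 766.3 in primary oocytes, against 2626, 2362, 2333 and 2013 in primordial oocytes, a change of -1.78 ± 0.18 with no overlap (unmixed -1.60 ± 0.21). This probe set may cross-hybridise, and 2 others of the gene fell as deposited, by 1.33 ± 0.17 and 1.13 ± 0.18. With unmixed values neither was called (-0.05 ± 0.42 and 0.10 ± 0.46), the primordial samples lying on both sides of the primary ones. Another probe set of the gene did not pass the signal filter. Gtf2b, which encodes TFIIB, rose by 0.74 ± 0.09 (unmixed 0.56 ± 0.12), with 5398 to 6546 in primary samples and 3039 to 3811 in primordial samples. Gtf2a1, the large TFIIA subunit, rose by 0.72 ± 0.16 on its representative probe set (unmixed 1.0 ± 0.23). Its probe set 1433511_at rose by 1.23 ± 0.19 (unmixed 1.23 ± 0.24), but 1421357_at fell by 1.17 ± 0.24 (unmixed -1.48 ± 0.28), both with no overlap unmixed. Gtf2f2, the small TFIIF subunit, fell by 0.70 ± 0.17 (unmixed -0.91 ± 0.21). Gtf2h1 and Gtf2a2 were not called, with changes of -0.12 and -0.22.

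In Mediator, 15 of 30 subunits rose and 4 fell, against 25.3% and 23.5% of all genes, and with unmixed values 15 rose and 2 fell, against 23.2% and 18%. By module the rises were 3 of 7 in the head, 5 of 9 in the middle, 5 of 10 in the scaffold and tail and 2 of 4 in the kinase module. Med21, which forms the hinge of the middle module with Med7, had 321.0, 387.1, 412.9 and 407.1 in primary oocytes, against 164.6, 156.7, 141.6 and 87.7 in primordial oocytes. It rose by 1.31 ± 0.17 with no overlap (unmixed 1.70 ± 0.31). Med13, which ties the kinase module to the core, rose by 0.90 ± 0.14 (unmixed 0.76 ± 0.17), and Med23, a tail subunit, by 0.68 ± 0.12 (unmixed 0.79 ± 0.14). The other tested Med13 probe sets, 1438725_at, 1444068_at, 1453161_at and 1436904_at, changed by 0.33, 0.34, -0.23 and -1.32. None of these was called in either reading, although 1436904_at had no overlap unmixed (-1.46 ± 0.55). Med17, the scaffold of the head, had 4914, 4967, 5266 and 5051 in primary oocytes, against 4859.7, 3051, 3629.7 and 2774 in primordial oocytes. It rose by 0.53 ± 0.13, and by 1.39 ± 0.31 unmixed, where primordial replicate 1 (4973) lies among the primary samples and the other 3 lie below them. Med1, which binds nuclear receptors, fell by 0.49 ± 0.15 on its representative probe set (unmixed -0.52 ± 0.16), a call lost under median scaling. Med12 (-0.02) and Med14 (0.22) did not pass the test on their representative probe sets. The Med14 probe set 1437632_at of 430B rose by 0.86 ± 0.18 (unmixed 0.72 ± 0.20, with no overlap). The remaining Med14 probe sets of 430B were not called in either reading.

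**Figure D2:**
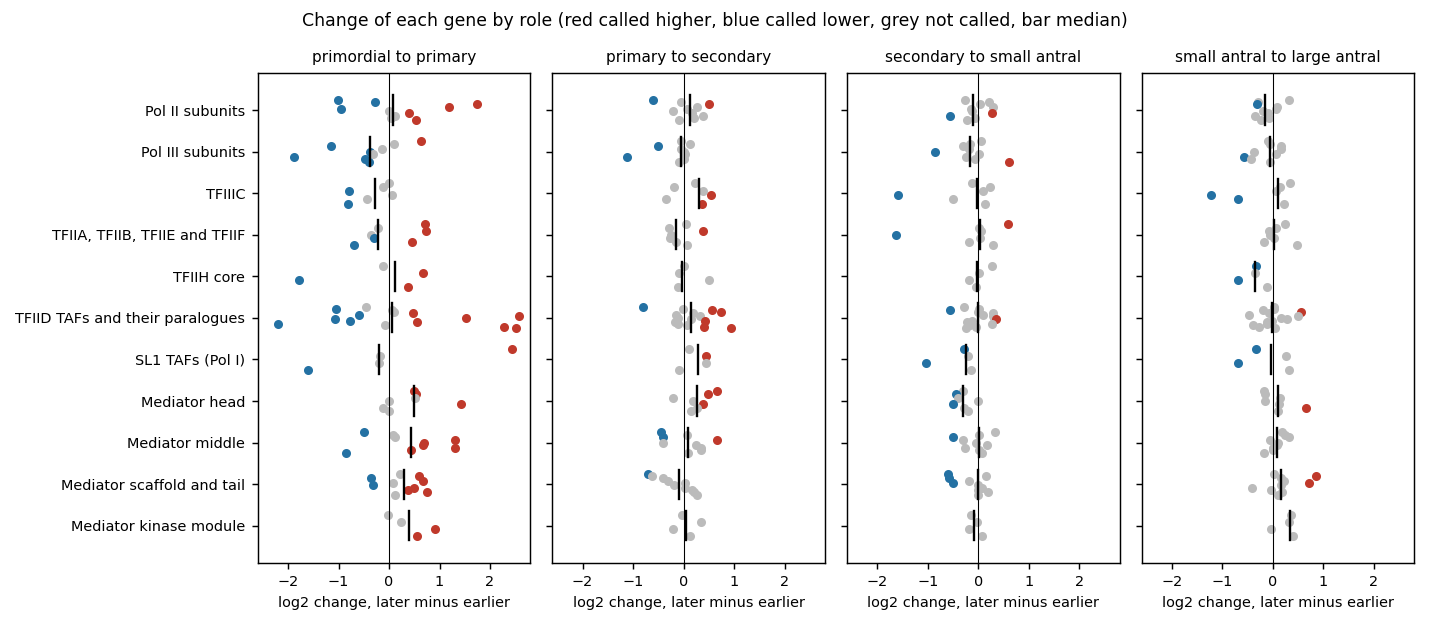
Log2 change (x axis, later minus earlier) of each gene in its role (y axis) at the 4 successive transitions, 1 panel each. Red points are genes called higher, blue called lower and grey not called, and the bar is the median of the role. The first panel is the widest, from -2.20 for Taf7l to 2.56 for Taf3, and Mediator medians lie at 0.30 to 0.50 there. Taf7l passed the signal filter through its primordial samples alone.

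**Figure D3:**
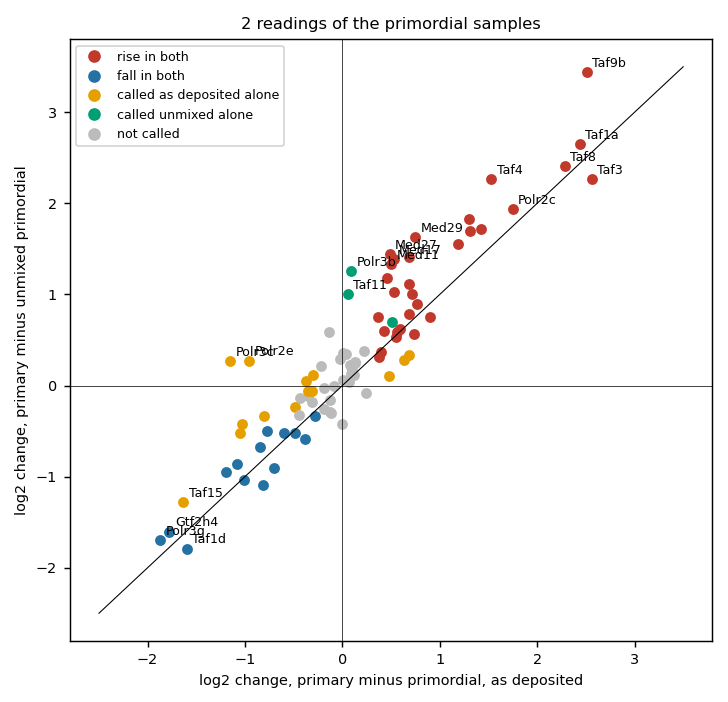
Log2 change between primordial and primary oocytes, with deposited (x axis) and unmixed (y axis) primordial values, for the members tested in both. Points on the diagonal line have the same change in both readings. Red marks the 30 genes that rose in both and blue the 14 that fell in both, orange a call as deposited alone, green a call unmixed alone and grey no call, and Polr3c and Polr2e, called lower as deposited, lie at 0.27 unmixed.

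Sequence just upstream of the start site is shown for the members with some of the largest changes at this first transition, 4 that rose and then 3 that fell, so that what they do and do not share can be read off. Each is the 100 bases before the annotated start, 5′ to 3′ on the strand of the gene, from the RefSeq promoter table of mouse build GRCm38.p6. Capitals mark the motifs searched. Taf1a lies at chr1:183388785-183388884 (plus strand), Taf8 at chr17:47502292-47502391 (minus), Taf9b at chrX:106221159-106221258 (minus) and Polr2c at chr8:94857350-94857449 (plus). Polr3g lies at chr13:81711014-81711113 (minus), Polr2a at chr11:69758634-69758733 (minus) and Gtf2h4 at chr17:35673744-35673843 (minus). Taf1a and Taf9b have 2 annotated starts each, and the first in the table is shown.
Taf1a: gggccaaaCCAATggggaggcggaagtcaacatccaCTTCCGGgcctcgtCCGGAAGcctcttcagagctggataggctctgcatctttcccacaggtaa
Taf8: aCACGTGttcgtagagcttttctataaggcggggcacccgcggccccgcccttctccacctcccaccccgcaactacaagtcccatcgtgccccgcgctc
Taf9b: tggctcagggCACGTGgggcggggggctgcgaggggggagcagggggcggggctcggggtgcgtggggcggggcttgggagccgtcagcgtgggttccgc
Polr2c: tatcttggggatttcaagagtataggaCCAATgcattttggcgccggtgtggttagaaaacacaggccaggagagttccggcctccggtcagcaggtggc
Polr3g: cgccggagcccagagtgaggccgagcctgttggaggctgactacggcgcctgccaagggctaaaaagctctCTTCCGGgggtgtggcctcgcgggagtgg
Polr2a: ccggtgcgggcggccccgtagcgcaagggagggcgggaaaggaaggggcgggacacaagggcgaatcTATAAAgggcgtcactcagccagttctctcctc
Gtf2h4: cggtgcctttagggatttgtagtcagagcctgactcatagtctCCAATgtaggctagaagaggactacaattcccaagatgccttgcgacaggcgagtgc

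Windows running from 250 bases before to 50 bases after the start were given for 79 member genes, 94 windows in all. The motifs were searched on both strands, and overlaps between motifs were not removed. CCGGAAG, the core that ETS factors bind, was in 33.0% of member windows, against 14.3% of the 15636 windows of genes tested on the arrays and 8.9% of all 32851 windows. The E-box CACGTG was in 21.3%, 9.0% and 7.2% in that order, and the site of NRF1 in 16%, 8.3% and 4.6%. CCAAT (34.0%, 37.3% and 37.4%), TATAAA (13.8%, 8.9% and 13.6%), the YY1 site (2.1%, 1.5% and 0.9%) and TAATTG, which the oocyte factor NOBOX binds (6.4%, 5.5% and 8.0%), had shares closer to those of other genes. Base composition was not matched. In the 100 bases shown, Taf1a and Polr3g hold CCGGAAG, Taf8 and Taf9b CACGTG, Taf1a, Polr2c and Gtf2h4 CCAAT and Polr2a TATAAA. The same 100 bases of Taf3, Taf4 and Taf1d, which also changed by over 2-fold but are not shown, held none of the motifs searched, and neither did those of the second Taf9b start. Members that rose and members that fell at this transition were also compared, counting only genes called the same way as deposited and unmixed. They had 33 windows of 26 genes and 16 windows of 13 genes. CCGGAAG was in 33.3% and 25% of these windows and CCAAT in 45.5% and 18.8%, with no test between them.

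After the primary stage fewer members changed. Between primary and secondary oocytes 15 rose and 8 fell, against 9.16% and 6.75% of all genes, with a median change of 0.06 (all genes 0.00). Between secondary and small antral oocytes 4 rose and 13 fell, against 5.43% and 8.94%, with a median of -0.06 (all genes -0.01). Between small and large antral oocytes 4 rose and 8 fell, against 2.99% and 4.37%, with a median of 0.01 (all genes 0.01). Over the whole span from primary to large antral oocytes 24 rose and 23 fell, against 17.2% and 17.6%, with a median of 0.02 (all genes 0.01). At least 1 of the 3 successive transitions was called for 39 genes and none for 50, and the same counts over all genes tested are not given here. Fitted without the primordial samples, the rises and falls were 16 and 7, then 6 and 13, then 4 and 8, and 24 and 22 over the whole span. Over all 15426 genes they were 1553 and 1036, 914 and 1417, 478 and 753, and 2678 and 2721 in that fit. Calls at these steps use a spread estimated over all 5 stages, so unmixed primordial values, which vary more, lower them as well, for example to 2 rises and 3 falls into the secondary stage, against 4.09% and 2.86% of all genes. Of the member calls named in the next paragraphs, those of Gtf2f1, Gtf2h4, Gtf3c1, Med11, Med15, Med17, Med21, Polr3g (its last step), Polr3gl, Taf2 and Taf9b were not made with that wider spread. Single libraries moved the smaller counts by over 1.5 times, as given with the limits at the end.

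Polr3g, already lower in primary oocytes, went on falling. Its signals were 283.9, 290.5, 351.1 and 296.7 in primary, 137.7, 109.9, 117.3 and 123.0 in secondary, 124.4, 115.4, 110.7 and 52.9 in small antral and 74.3, 43.3, 39.0 and 70.8 in large antral oocytes. The secondary samples all lay below the primary ones, and the large antral samples were all below 100. It fell by 1.13 ± 0.18 into the secondary stage (limma adjusted p = 7.5e-05) and changed by -1.9 ± 0.18 over the span to large antral (adjusted p = 4e-09). The last step, -0.56 ± 0.18 (adjusted p = 0.0438), was close to the threshold. It was not called without further scaling, with a pseudocount of 64, without the signal filter, without the primordial samples, with unmixed values or with only the 2 stages fitted (adjusted p 0.0556 to 0.165), nor without small antral replicate 1, 2 or 3 or large antral replicate 2 or 3 (adjusted p 0.0922 to 0.142). Its counterpart Polr3gl averaged 57.5 ± 9.7 in large antral and 93.3 ± 13 in primary oocytes (SD, n = 4 each), a change of -0.49 whose call was lost without any of 6 of these 8 samples, all but primary replicate 1 and large antral replicate 4 (adjusted p 0.055 to 0.109).

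Polr3e, a subunit peculiar to polymerase III, had 367.5, 461.7, 339.0 and 461.1 in small antral oocytes, against 648.9, 779.6, 731.0 and 903.5 in secondary oocytes. The groups did not overlap and the change was -0.86 ± 0.14 (adjusted p = 7.3e-05). The second Polr3e probe set did not pass the test there (0.05 ± 0.20) or from primary to large antral oocytes (-0.08 ± 0.20), so the fall rests on 1 of 2 probe sets. Polr3k went the other way, with 3328, 3352, 2867 and 3299.6 in small antral oocytes, against 1841, 2014, 2369 and 2156 in secondary oocytes, a rise of 0.61 ± 0.10 with no overlap (adjusted p = 9e-05). Polr3a (-0.09) and Polr3b (-0.09) did not pass the test over the span. Over that span 1 of 9 polymerase III subunits rose and 4 fell, against 17.2% and 17.6% of all genes.

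Among TFIIIC subunits, Gtf3c4 had 299.8, 197.0, 223.8 and 277.5 in primary, 350.4, 403.7, 331.8 and 413.1 in secondary, 61.2, 135.0, 120.3 and 107.1 in small antral and 21.1, 40.6, 23.1 and 18.8 in large antral oocytes. On this probe set no sample of a stage overlapped the next from secondary oocytes on. It fell by 1.59 ± 0.18 into the small antral stage (adjusted p = 1.2e-06) and by 1.23 ± 0.18 into the large antral stage (adjusted p = 0.00018). Over the span it fell by 2.28 on the log2(signal + 32) scale, which understates falls to signals this low. The other Gtf3c4 probe set, 1438692_at of 430B, had 32.1 to 288.2 in secondary, 31.7 to 142.9 in small antral and 20.3 to 188.6 in large antral samples. Its samples overlapped at these steps, so the falls without overlap rest on 1 of 2 probe sets. Gtf3c5 fell by 1.56 ± 0.22 over the span, averaging 32.3 ± 19 in large antral and 152.7 ± 21.2 in primary oocytes (SD, n = 4 each). Gtf3c6 rose by 0.72 ± 0.13, with 512.5 to 636.9 in large antral samples and 307.5 to 374.5 in primary samples, and Gtf3c1 rose by 0.46, a call lost without primary replicate 1 or 3 or large antral replicate 1 (adjusted p 0.0856 to 0.094). Of the 6 TFIIIC subunits, 3 rose and 2 fell over the span, against 17.2% and 17.6% of all genes.

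Gtf2e1, the large TFIIE subunit that brings in TFIIH, had 239.8, 237.0, 197.8 and 238.0 in small antral oocytes, against 768.6, 870.1, 646.4 and 810.0 in secondary oocytes. On representative probe sets this was the largest fall of any member at that transition, by 1.63 ± 0.20 (adjusted p = 5.7e-06), with no overlap. It is measured on 430B, where 3 of the small antral samples carry the extraction text of the secondary stage. Without those 3 samples the change was -1.56 (adjusted p = 0.00883). Large antral samples had 254.5, 161.1, 157.1 and 346.2. Gtf2a1 rose over the span by 0.89 ± 0.16, with 1034 to 1171 in large antral samples and 493.9 to 677.6 in primary samples, and its other 2 probe sets rose as well (0.73 and 0.69). Gtf2f2 rose by 0.83 ± 0.17 and Gtf2f1 fell by 0.51 ± 0.12, both without overlap. Gtf2h4 fell between small and large antral oocytes by 0.69 ± 0.18, a call lost without small antral replicate 1 or 4 or large antral replicate 1 (adjusted p 0.0504 to 0.0703) or on the other probe set of highest signal (-0.46).

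In TFIID the span held 5 rises and 3 falls of 15, against 17.2% and 17.6% of all genes. Taf12, the histone-fold partner of Taf4, had 263.8, 278.3, 207.6 and 260.3 in primary, 507.6, 479.5, 446.8 and 337.3 in secondary, 463.4, 506.4, 484.7 and 324.9 in small antral and 726.1, 680.4, 733.4 and 519.1 in large antral oocytes. Among growing oocytes the primary samples lay below all others and the large antral samples above all others. It rose by 0.73 ± 0.15 into the secondary stage and by 1.29 ± 0.15 over the span (adjusted p = 2.6e-07). Taf3 rose further by 1.12 ± 0.18 over the span, with 7579 to 8549 in large antral samples and 2978 to 4611 in primary samples. Taf9b rose by 0.94 ± 0.14 into the secondary stage, with 5939 to 7063 in secondary samples and 2999.9 to 3593 in primary samples. Taf5 rose by 0.78 ± 0.10 over the span, to 9018 ± 479.5 in large antral oocytes, against 5236 ± 405.2 in primary oocytes (SD, n = 4 each), after its lower level in primary than in primordial oocytes.

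Taf1, the largest TFIID subunit, ran against these. It had 846.3, 661.5, 1063 and 684.8 in large antral oocytes, against 2398, 1666, 1651 and 1327 in primary oocytes, a change of -1.08 ± 0.21 with no overlap (adjusted p = 0.00037). Taf7, which binds Taf1, fell by 0.52 ± 0.13 (adjusted p = 0.0021). Taf2 fell by 0.52, a call lost without primary replicate 3 or 4 or large antral replicate 1, 2 or 3 (adjusted p 0.0703 to 0.128). In SL1, Taf1c had 311.6, 144.2, 252.8 and 270.0 in small antral oocytes, against 584.0, 545.7, 520.2 and 432.2 in secondary oocytes, a change of -1.03 ± 0.19 with no overlap, and it fell by 1.29 ± 0.19 over the span. Taf1a, after its rise, fell by 0.51 ± 0.10 over the span, with 4038 to 4677 in large antral samples and 5744 to 6316 in primary samples.

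**Figure D4:**
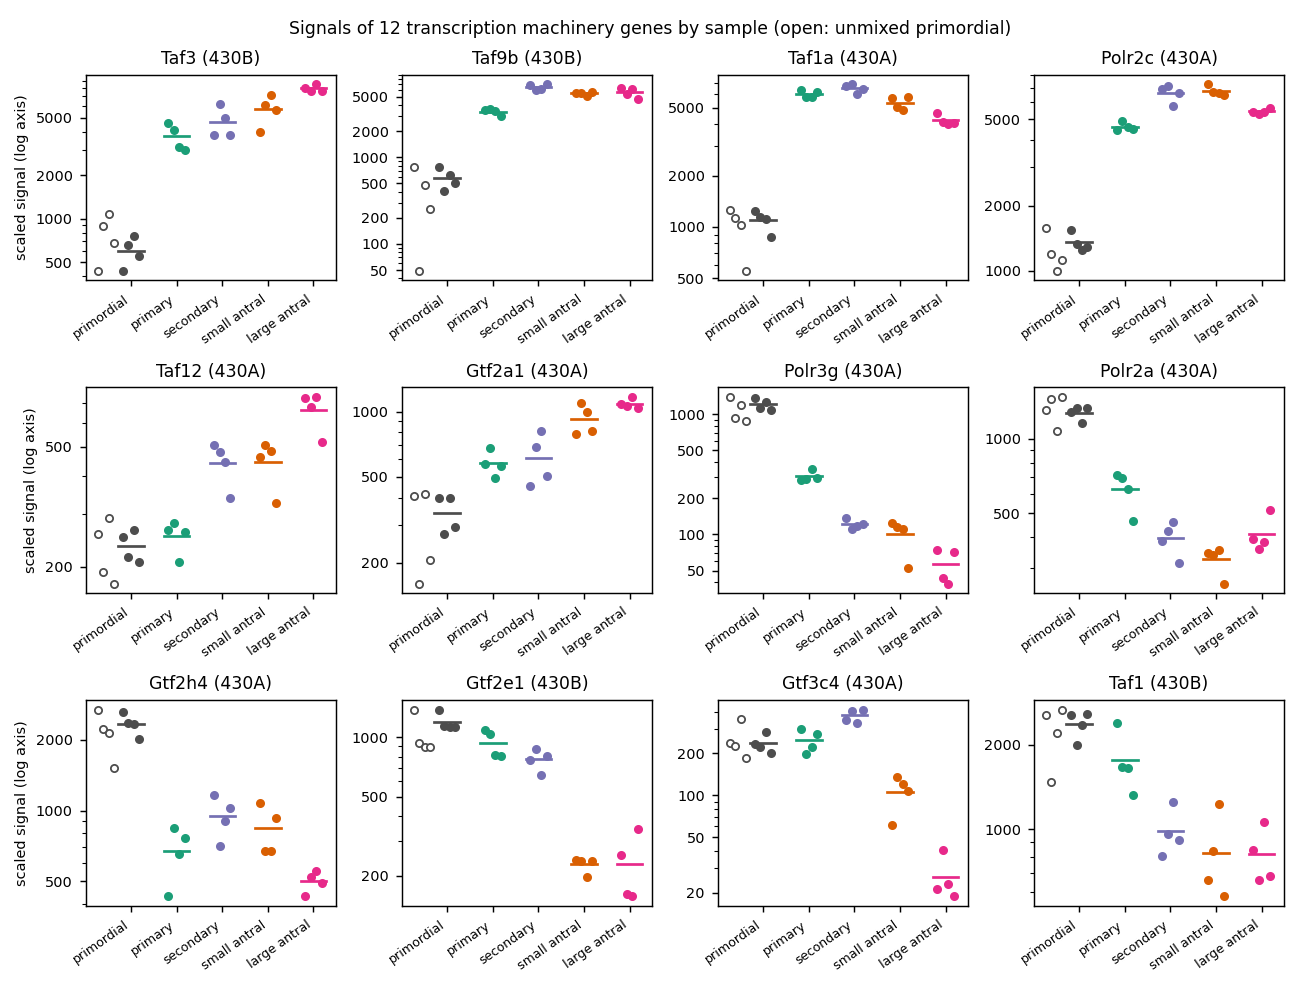
Scaled signals (y axis, log scale, set separately for each gene) of 12 members in each sample of the 5 stages (x axis). Filled points are samples, bars are stage means of 4 samples and open points to the left are unmixed primordial values. Gtf2e1 drops between the secondary and small antral stages, Gtf3c4 falls to 18.8 to 40.6 in large antral samples and Taf12 climbs to 519.1 to 733.4.

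On their representative probe sets RNA polymerase II subunits changed by between -0.57 and 0.63 over the span. Polr2a fell by 0.61 ± 0.14 between primary and secondary oocytes, with 384.2, 421.9, 460.0 and 313.2 in secondary samples and 713.0, 691.2, 624.5 and 463.4 in primary samples, which do not overlap. Polr2c rose by 0.51 ± 0.09 at the same step, with 5748 to 7090.3 in secondary samples and 4448 to 4908 in primary samples (adjusted p = 0.00017). Polr2g rose by 0.34 ± 0.08 over the span. The shared subunits Polr2f and Polr2h each fell by 0.53 over the span, Polr2h with overlapping samples. Polr2b (-0.14) and Polr2e (-0.03) did not pass the test. Over the span 3 of 10 subunits rose and 4 fell, against 17.2% and 17.6% of all genes.

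Of the 30 Mediator subunits, 0 rose and 6 fell into the small antral stage, against 5.43% and 8.94% of all genes, and 3 rose and 0 fell into the large antral stage, against 2.99% and 4.37%. With unmixed values these were 0 and 2, against 2.54% and 4.77%, and then 1 and 0, against 0.53% and 1.33%. Of the 3 rises, that of Med15 was lost without either of 2 libraries, as given below. Med14, the backbone that holds head, middle and tail together, had 193.6, 187.0, 175.7 and 170.6 in large antral oocytes, against 550.4, 435.3, 469.5 and 483.9 in primary oocytes. The representative probe set fell at the secondary and small antral steps (-0.71 ± 0.16 and -0.59 ± 0.16, the second not called when only those 2 stages were fitted) and by 1.27 ± 0.16 over the span (adjusted p = 3.9e-07). The 4 probe sets of 430B did not give 1 answer. 1437632_at fell by 3.89 ± 0.18 over the span and fell by 2.72 ± 0.18 between secondary and small antral oocytes, and 1457167_at fell by 1.34 ± 0.17. In contrast, 1456785_at changed by -0.28 ± 0.13 and 1443597_at by 0.56 ± 0.31, and neither was called. Which transcript forms these probe sets detect was not tested.

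**Figure D5:**
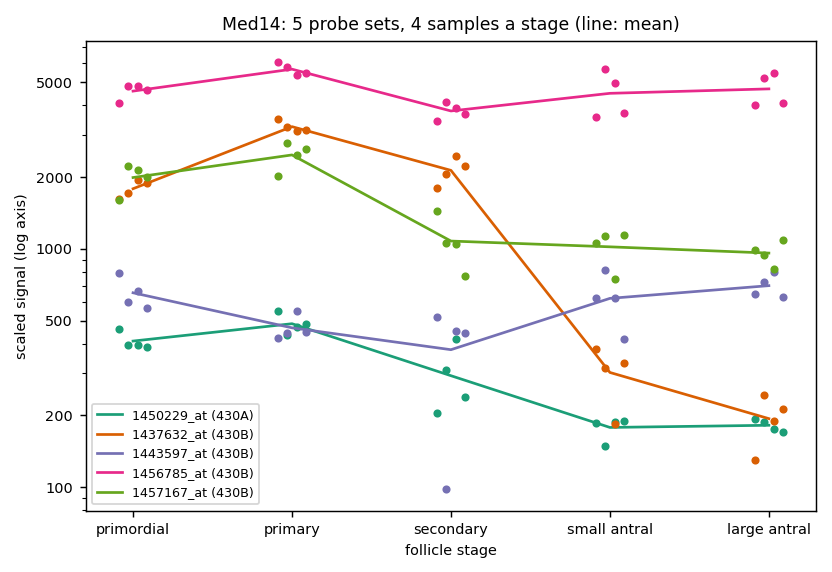
Scaled signals (y axis, log scale) of the 5 Med14 probe sets at the 5 follicle stages (x axis), with points for the 4 samples of a stage and lines through the stage means. 1437632_at and the 430A probe set 1450229_at end at or below 242.8 in large antral samples, while 1456785_at lies between 3436 and 6071 in all samples.

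Med16, a tail subunit, fell by 0.83 ± 0.14 over the span, with 194.3 to 294.9 in large antral samples and 398.6 to 480.6 in primary samples. Between secondary and small antral oocytes it fell by 0.59 ± 0.14. Med24, also of the tail, was higher in large antral than in small antral oocytes, with 363.7, 376.4, 343.7 and 503.9, against 171.7, 296.4, 260.4 and 198.6, which do not overlap (0.71 ± 0.16, adjusted p = 0.0065). Med15, a tail subunit that many activators bind, had 1298, 1228, 1458 and 1349 in large antral oocytes, against 476.3, 1052, 1049 and 501.4 in small antral oocytes. Small antral replicates 1 and 4 lay well below the other 2, and the rise of 0.86 ± 0.23 was not called without replicate 1 or without replicate 4 (adjusted p 0.0683 to 0.0743). Med11 and Med21 rose between primary and secondary oocytes by 0.67 and 0.66, both without overlap. Med17 had 4914 to 5266 in primary, 5958 to 7976 in secondary and 4458 to 5873 in small antral samples. It rose by 0.49 and then fell by 0.45, the second call being lost under median scaling (-0.41) and without secondary replicate 1 or 2 or small antral replicate 4 (adjusted p 0.0521 to 0.0675). Med12, Med23 and Med26 were not called at any growing step.

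Of the 90 genes, 42 had more than 1 tested probe set, and for 9 of these the probe sets were called in opposite directions at some comparison. Between primordial and primary oocytes these were Gtf2a1, Gtf2f1, Med1, Med15, Med25, Polr3e and Taf7, and with unmixed values Gtf2a1, Gtf2f1, Med1 and Med15. Gtf2f1 rose by 0.46 on its representative (unmixed 1.18) and fell by 1.03 on the other probe set (unmixed -0.69). Taf7 rose by 0.55 and 1.58 on 2 probe sets (unmixed 0.53 and 1.23) and fell by 0.40 on the other, which was not called unmixed (-0.40, adjusted p = 0.0784). Med25 fell by 0.32 on 430A, which was not called unmixed (-0.06), and rose by 0.67 on 430B (unmixed 1.07). Over the span from primary to large antral oocytes they were Med1, Polr2a and Polr2f. The second Polr2a probe set rose by 1.02 ± 0.33, on signals averaging 178.8 ± 68.3 in large antral and 74.5 ± 43.3 in primary oocytes (SD, n = 4 each). The second Polr2f probe set rose by 1.64 ± 0.36.

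A list of 67 related genes outside the rule, 62 of them tested, gave 14 rises and 21 falls between primordial and primary oocytes, against 25.3% and 23.5% of all genes, and 15 rises and 22 falls over the span, against 17.2% and 17.6%. With unmixed values these were 18 rises and 12 falls, against 23.2% and 18%, and then 10 rises and 18 falls, against 12.1% and 12.7%. The medians as deposited were -0.10 and -0.19. Among TBP and its relatives, Tbp, the subunit that gives TFIID its hold on DNA, rose by 0.70 over the span, averaging 1278 in large antral and 768.3 in primary oocytes. Tbpl1, a relative of TBP, fell by 1.93, and Btaf1, which takes TBP off DNA, fell by 2.66 (adjusted p = 2.1e-16), averaging 861.4 in large antral and 5612 in primary oocytes. Tbpl2, another relative on the list, was not among the genes tested. Gtf2ird1 rose by 2.96. In the polymerase III set of 10 tested genes, 1 rose and 4 fell over the span. Brf2, the initiation factor for some short RNA genes, rose by 1.22, while Bdp1, another initiation factor, fell by 1.27 and Maf1, the repressor of polymerase III, by 1.39. Of 25 tested pausing and elongation genes, 4 rose and 11 fell, among them Rtf1 (-2.65), Ell2 (-2.45), Hexim1 (-1.46) and the elongation kinase Cdk9 (-1.28). Of the TFIIH kinase and helicase genes, Cdk7, Ccnh and Mnat1, which form the kinase, rose by 0.55, 1.0 and 0.53, and the helicases Ercc2 and Ercc3 did not pass the test. Polr1c, shared by polymerases I and III, fell by 0.97 and its partner Polr1d rose by 0.66.

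The 2 germ cell paralogues left out by the rule are given for comparison. Taf4b averaged 5717 in primary and 8115 in primordial oocytes (-0.50 ± 0.10, unmixed -0.58), where its paralogue Taf4 rose. Gtf2a1l averaged 2161 in primary and 815.2 in primordial oocytes (1.35 ± 0.16, unmixed 1.26). Between small and large antral oocytes both fell, Taf4b by 0.54 ± 0.10 and Gtf2a1l by 0.56 ± 0.16, the samples of Gtf2a1l overlapping.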

How the data were processed

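Each sample's RNA was hybridised to a 430A or 430B array, after extraction with a Picopure kit and small-sample biotin labelling, per the labels' protocols. The deposited intensities are linear MAS5 signals, per the submitters' processing notes, whose version and settings are not given in the sources used here. As deposited, trimmed means lay near 151 on 430A and 145 on 430B, and each array was scaled here to a 2% trimmed mean of 500. Probe sets at 100 or more on at least 4 of 20 arrays were kept (15845 on 430A and 19115 on 430B) and log2(signal + 32) was fitted with limma 3.58.1 in R 4.3.3 (lmFit, eBayes with trend, 15 residual degrees of freedom), all 5 stages of an array type together, with Benjamini-Hochberg adjustment within the array type. The fit was tested on simulated data. Genes were taken from the platform annotation, 430A before 430B and then by the highest mean. Named genes were the 6 largest non-overlapping rises and falls of each comparison, 48 listed genes and genes whose probe sets were called in opposite directions. Members, lists and rules were chosen with earlier results of these data known. The alternatives were other scalings, pseudocounts, filters, fits and probe sets, unmixed primordial values and omitted samples. The number of arrays limits the precision.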

Additional observations from a re-analysis of the deposited data

Results flagged for a closer look

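Among 300 groups of 4 samples of the named genes, 19 held a sample whose gap to the nearest other sample took up most of the group's range (Dixon's criterion), which chance gives for about 1 group in 20. All 6 such values in primordial oocytes were replicate 1, the sample that the other 3 are mixed with: Gtf2e1 at 1382.3 (others 1123.7 to 1147.3), Med14 at 461.9 (388.6 to 396.4), Med16 at 663.2 (505.4 to 530.7), Polr2m at 1489.7 (982.1 to 1052.4), Taf15 at 435.3 (321.4 to 332.9) and Taf5l at 1223.6 (968.7 to 994.4).

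In primary oocytes Med11 stood at 178.5 (others 260.3 to 265.8) and Polr2h at 297.2 (438.6 to 450.8), both in replicate 1, and Taf10 at 3407.9 (2553.5 to 2665.5) and Taf5 at 4628.6 (5410.2 to 5463.6), both in replicate 4. In secondary oocytes Med25 stood at 448.8 (545.6 to 563.2). In small antral oocytes Gtf2e1 stood at 197.8 (237 to 239.8), Med14 at 148.2 (186.6 to 189.7), Polr3b at 1282.5 (983.9 to 1010.8), Polr3k at 2867 (3299.6 to 3351.6) and Taf5 at 8658.5 (6913 to 7201.9). In large antral oocytes Med17 stood at 5145.6 (4421 to 4460.3), Taf1a at 4677.1 (4037.7 to 4095.8) and Taf7l at 99.1 (15.2 to 29.1).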

How the results depend on the processing

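Over all alternatives, the changes of named genes kept their direction and side of the threshold 4848 times, lost a call 238 times, gained one 26 times and reversed 2 times, for Polr2e (0.274) and Polr3e (0.053) between primordial and primary oocytes with unmixed values. With unmixed primordial values the counts were 14 falls into the primary stage, 2 rises and 3 falls into the secondary, 1 rise and 6 falls into the small antral, 1 rise and 1 fall into the large antral stage, and 15 falls over the span from primary to large antral. These values vary more and enter the shared spread. Median scaling gave 16, 4, 8 and 5 falls at the 4 successive transitions, against 2542, 844, 1151 and 568 of all 15410 genes. Without the mean-variance trend 5 genes fell into the secondary stage, and with only the 2 stages fitted 5 fell into the large antral stage. Of all 15426 genes, 861 and 551 fell in these fits. The cause of these last shifts was not tested.

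Leaving out 1 sample at a time gave 31 to 33 rises and 21 to 27 falls into the primary stage, 10 to 13 and 3 to 8 into the secondary, 2 to 5 and 8 to 12 into the small antral, 1 to 5 and 1 to 7 into the large antral stage, and 19 to 24 and 20 to 23 over the span. Falls into the secondary stage were 3 without primary replicate 1 or secondary replicate 4, 4 without secondary replicate 1 and 5 without primary replicate 2 or 3. Into the small antral stage 2 genes rose without secondary replicate 1 and 8 fell without secondary replicate 2. Into the large antral stage 1 gene rose without small antral replicate 4 and 2 without large antral replicate 1, 2 or 3, while falls were 1 without small antral replicate 1, 3 without small antral replicate 4 or large antral replicate 2 and 2 without large antral replicate 3. Counts over all 15426 genes moved as well, for example to 251 rises and 466 falls into the large antral stage without small antral replicate 1. Of 242 named changes, 33 lost a call and 7 gained one without 1 sample.

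Replicate numbers did not pair the samples: deviations of same-numbered samples correlated between -0.127 and 0.179 on 430A (over 0.1 in 5 of 40 pairs) and between -0.051 and 0.071 on 430B. With the replicate number as a block, 33 genes rose and 26 fell into the primary stage, 13 and 8 into the secondary, 5 and 13 into the small antral, 4 and 9 into the large antral stage, and 24 and 23 over the span. Over all 15426 genes that fit gave 3883 and 3602, 1409 and 1033, 832 and 1379, 464 and 671, and 2639 and 2709 in the same order.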
